A study of Mus musculus with 4 samples.

Results

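The miR-27 family consists in mouse of miR-27a-3p and miR-27b-3p, and its RNA targets were read here from Ago2 chimeric eCLIP-seq of overloaded skeletal muscle. In this method Ago2, the protein that carries mature miRNAs, was immunoprecipitated from UV-crosslinked tissue, the miRNA was ligated to the RNA it was bound to, and the joined molecule was sequenced, so each chimeric read names a miRNA together with a stretch of target. The members were all entries of the peak lists that name mmu-miR-27a-3p or mmu-miR-27b-3p, where an entry is 1 miRNA at 1 peak. There were 4267 of 93468 entries in the control library and 4539 of 100897 in the mimic library. The target gene of a peak was the GRCm38 gene span that it overlapped most on the same strand.

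Both libraries came from the plantaris of male C57BL/6J mice aged 5 months, after 10 days of mechanical overload (MOV) by removal of part of the synergist muscles. The MOV control muscle received a scramble control lentivirus (left leg) and the MOV mimic muscle a lentivirus for a miR-1a-3p mimic (right leg), both under a mouse CMV promoter and with TurboGFP as reporter. The MOV_Control and MOV_Mimic groups held 1 library each, whole muscle was used, and whether both muscles came from the same mouse was not stated, so differences between the libraries have no replicate check and no test was made. The 2 input libraries were not analysed here. The libraries held 232408 (control) and 259207 (mimic) chimeric reads, a ratio of 1.12, in 20754 and 21872 peaks, and 560 miRNAs were named in each. The reads of miR-1a-3p itself were 27411 and 35876, a ratio of 1.31. The muscle markers Acta1, Ckm, Myh4, Myh1 and Ttn all carried chimeric reads in both libraries, with Ttn holding 7.54% and 9.09% of the total.

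A miRNA finds its targets mainly through its seed, bases 2 to 8, which pairs with a complementary stretch in the mRNA, often in the 3′ UTR, after which Ago2 and its partners repress or destabilise the mRNA. The miR-27 miRNAs are transcribed with miR-23 and miR-24 from paired genomic clusters and are known as regulators of adipocyte differentiation, lipid handling, vessel growth and myogenesis. In muscle, Pax3, myostatin and Mef2c are among their reported targets.

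The mature sequences are shown because the seed is what the members share and what their target sites should contain. They are RefSeq entries on GRCm38.p6, written 5′ to 3′ with the seed in capitals. The sequence of miR-128-3p, whose seed is that of miR-27 moved by 1 base, and those of the cluster partners miR-23a-3p and miR-24-3p are given for comparison.
miR-27a-3p: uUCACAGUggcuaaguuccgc
miR-27b-3p: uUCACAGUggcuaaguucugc
miR-128-3p: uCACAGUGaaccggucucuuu
miR-23a-3p: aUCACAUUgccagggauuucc
miR-24-3p: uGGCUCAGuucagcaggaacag
The mature miR-27a-3p lies on the plus strand at chr8:84208727-84208747, in Mir27a, and miR-27b-3p on the plus strand at chr13:63300760-63300780, in Mir27b. Their 21 bases differ at 1 position (C19U, counted from the 5′ end of miR-27a-3p), outside the seed. Among 1679 mature miRNA names in the RefSeq table, these 2 were the only ones with the seed UCACAGU. The seeds of miR-27 and miR-128-3p have 6 bases in common, so an 8-base site CACTGTGA holds matches for both.

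Where it could be assessed, many peaks led by the family lay over a match to its seed. The complement of the seed is ACTGTGA, and it was searched on the sense strand in 1 GENCODE vM1 coding transcript per gene (the longest coding sequence). No genome of the build of the peaks was used here, so positions were compared as distances from the 3′ end of the gene, for peaks that lay wholly within the length of the annotated 3′ UTR. This takes the 3′ UTR to be free of introns and the gene models to end at the same base. Where the family held 3 or more reads and 50% or more of all chimeric reads of the peak, a match lay under 60 of 109 peaks in the control library (55.0%, Clopper-Pearson 95% interval 45.2 to 64.6) and under 58 of 105 in the mimic library (55.2%, 45.2 to 65.0). Over all positions 351 control and 322 mimic peaks met these limits, and the remaining ones were not assessed. Among them were the highest peaks of Myh4, Myh1, Ttn and Mef2c. Where the family held 3 or more reads but under 50%, a match lay under 38.2% of 34 peaks and 28.9% of 38 peaks. Peaks with under 3 family reads had one in 13.4% of 515 and 13.1% of 513. Peaks of other miRNAs with 3 or more reads and no family entry had one in 0.344% of 2323 (0.149 to 0.677) and 0.833% of 2522 (0.516 to 1.27). The match of miR-23a-3p, AATGTGA, lay under 2 of the 109 and 0 of the 105 family peaks (upper bound of the interval 3.45% for the latter), against 4.18% and 3.13% of the peaks without a family entry. The intervals of the miR-27 match did not overlap between the first and the last class in either library, whereas peak lengths were alike, with medians of 83 and 88 nt in the first class and 77 and 80 nt in the last.

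**Figure D1:**
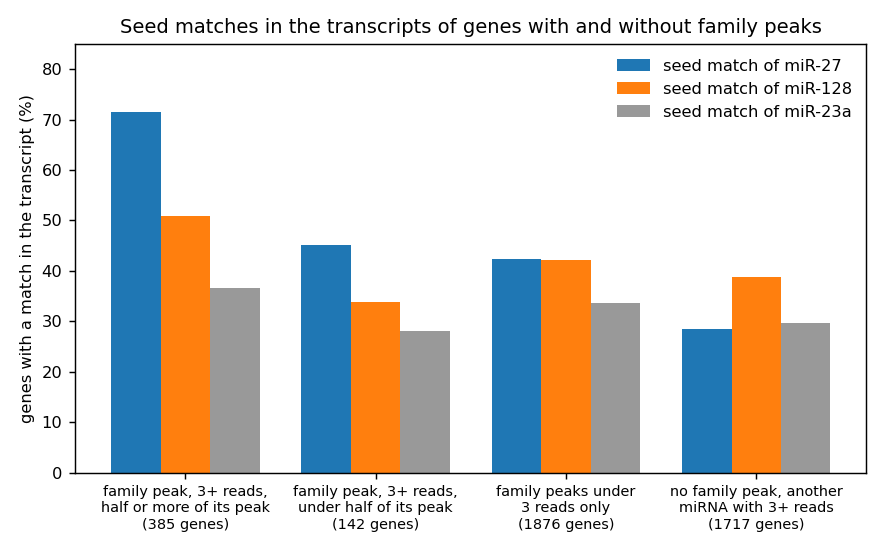
Share of genes (%, y axis) whose GENCODE vM1 transcript held the seed match of miR-27, miR-128 or miR-23a, in 4 classes of genes set by their miR-27 family peaks in either library (x axis, with the number of genes that had a transcript). The miR-27 bar falls from 71.4% to 28.4% across the classes, and the miR-23a bar lies between 28.2% and 36.6%.

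The same order held over whole transcripts. Of 385 genes with a family peak of 3 or more reads that made up 50% or more of the peak, 275 held ACTGTGA somewhere in the transcript (71.4%), against 45.1% of 142 genes whose family peaks of that size stayed under 50%, 42.3% of 1876 genes with smaller family peaks only, and 28.4% of 1717 genes with another miRNA at 3 or more reads and no family entry. Over all 22594 genes with a transcript it was 27.2%. Median transcript lengths in the 4 classes were 4019, 2779, 3456 and 3271 nt, and per kb of transcript the matches numbered 0.229, 0.177, 0.153 and 0.106. Matches were not confined to 3′ UTRs, since 46.8% of the 385 genes had one in the coding sequence and 34.0% in the 3′ UTR. The match of miR-128-3p (CACTGTG) was held by 50.9% and 38.7% of the first and last class, and that of miR-23a-3p by 36.6% and 29.6%. Per kb of transcript these classes were closer, with 0.166 and 0.155 for miR-128-3p and 0.114 and 0.108 for miR-23a-3p. These shares describe the transcripts, and genes of 1 class differ in length and level.

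The target sites of 5 genes, picked after the values were seen, show the match in its context. Each line gives 30 bases of the 3′ UTR from the GENCODE vM1 transcript, 5′ to 3′, with the seed match in capitals, and in each gene the match lay at a distance from the 3′ end that the highest family peak covered.
Runx1: ccggagggaaACTGTGAatgcttctgattt
Plxnd1: ttatgcaccaACTGTGAatagctgccgctt
Tgfbr3: aatttcagttACTGTGAattcttctaatca
Abca1: aaacttactaACTGTGAatatgagaaagac
Mstn: caatttcgaaACTGTGAattcaagcaccac
All 5 have an A after the match, opposite the first base of the miRNA. For Runx1, a transcription factor that is induced in denervated muscle, the match lay 4084 to 4090 bases from the end of the transcript, and the peak chr16:92605458-92605630 (minus strand) covered 3993 to 4165 bases from the end of the gene. For Plxnd1, a semaphorin receptor of vessels, the match lay 217 to 223 bases from the end and the peak chr6:115954972-115955070 covered 162 to 260. Among the genes named by the rules of this report, the highest family peak covered a 3′ UTR match by distance in 10 of 50 genes in the control library and 11 of 53 in the mimic library. However, only 20 and 21 of these highest peaks lay wholly within the length of the annotated 3′ UTR. The mimic peak of Nfe2l2, counted among the 11, reached past that length. Peaks wholly outside it could not cover a 3′ UTR match, so 50 and 53 are not the numbers assessed.

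The family took a like share of both libraries. It made up 4.57% of control entries (4.43 to 4.70) and 4.50% of mimic entries (4.37 to 4.63), and 4.37% and 4.06% of chimeric reads. Family reads summed to 10159 (control) and 10531 (mimic), a ratio of 1.04 (exact conditional binomial interval 1.01 to 1.07). Divided by the library totals the ratio was 0.929 (0.904 to 0.955), so its direction depended on the scaling. The reads of miR-27a-3p went from 7084 to 7198, a ratio of 1.02 (0.983 to 1.05), and those of miR-27b-3p from 3075 to 3333, a ratio of 1.08 (1.03 to 1.14). Among 146 other miRNAs with at least 50 entries in each library the median ratio was 1.06 and the 5th to 95th percentiles were 0.763 to 1.47. Of these, 80 had a higher ratio than the family and 66 a lower one. The cluster partners gave 1.04 for miR-23a-3p, 1.104 for miR-23b-3p and 1.15 for miR-24-3p, and miR-128-3p gave 1.04. These intervals cover counting error only.

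**Figure D2:**
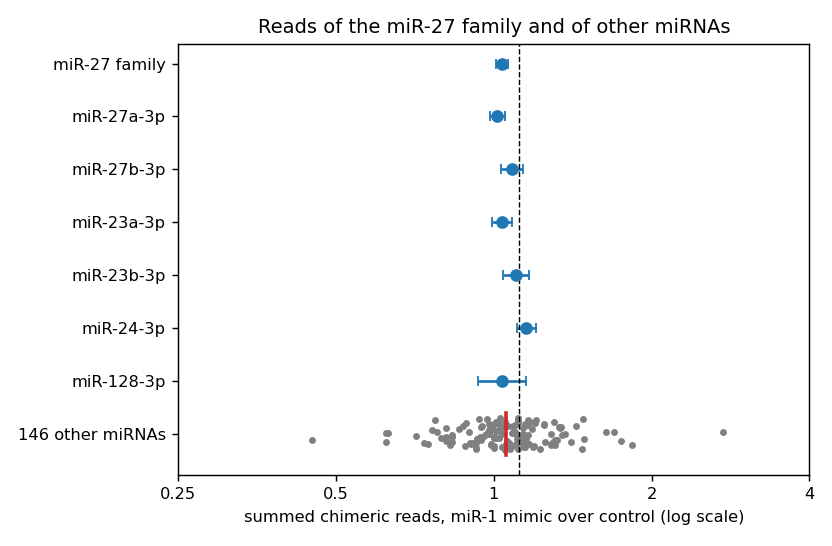
Summed chimeric reads in the mimic library over those in the control library (x axis, log scale) for the miR-27 family, its members, the cluster partners and miR-128-3p (points with 95% counting intervals) and for 146 other miRNAs (grey points, red line at their median of 1.06). The family at 1.04 lies inside the grey cloud and left of the dashed line, which marks the ratio of all chimeric reads, 1.12.

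The family occupied few peaks strongly and many weakly. Its entries fell on 3291 and 3440 distinct peaks, of which 573 and 565 had 3 or more family reads and 152 and 156 had 10 or more, the last holding 54.3% and 55.4% of all family reads. Such a spread was not particular to the family. Entries under 1 read made up 52.8% and 55.0% of its entries and 55.6% and 56.4% of those of other miRNAs. Entries of 10 or more reads numbered 146 of 4267 and 151 of 4539 for the family. For other miRNAs they numbered 2426 of 89201 and 2722 of 96358. Where family reads numbered 3 or more, the family held 50% or more of the chimeric reads at 351 of 573 peaks in the control and 322 of 565 in the mimic library, and it exceeded every other miRNA at 432 and 409. The mitochondrial chromosome carried 13.7% and 13.4% of all chimeric reads but 0.769% and 0.961% of the family's. No mitochondrial family peak (17 in the control and 27 in the mimic library) contained ACTGTGA, and the family held at most 6.03% and 6.81% of the reads of any of them. The 18S rRNA gene Rn18s-rs5 took 7.07% and 6.70% of family reads, close to its 6.71% and 6.41% of all reads.

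The members shared the stronger peaks. Over all family peaks, 976 of 3291 in the control (29.7%) and 1099 of 3440 in the mimic library (31.9%) listed both miR-27a-3p and miR-27b-3p, while 1655 and 1601 listed miR-27a-3p alone and 660 and 740 miR-27b-3p alone. At peaks with 10 or more family reads, 148 of 152 in the control and 155 of 156 in the mimic library listed both, and at those with 3 or more reads 83.1% and 86.9% did. Peaks were classed by the summed reads of both members, and a peak of few reads has little room for both names. The read minimum therefore bears on this rise, and its part was not tested. miR-27a-3p gave 69.7% of the control family reads (68.8 to 70.6) and 68.3% of the mimic family reads (67.5 to 69.2). The balance of the members differed among loci, where overlapping or abutting peaks of both libraries were merged into a locus. At 113 loci with 10 or more family reads in each library, the share of miR-27a-3p ranged from 9.09% to 100% in the control (median 69.5%) and from 22.9% to 97.5% in the mimic library (median 66.9%). The shares of the libraries were related across loci, with a Spearman rho of 0.558 and a Pearson r of 0.591 over the 113 loci, given as a description because loci of 1 gene and library share their source. miR-27a-3p was the larger member in both libraries at 85 loci and miR-27b-3p at 5.

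Titin (Ttn), the giant spring protein of the sarcomere, held loci of opposite balance. At Ttn chr2:76759844-76759977 miR-27a-3p made up 98.1% and 97.4% of 52.9 and 56.3 family reads, and at Ttn chr2:76799443-76799540 it made up 24.3% and 23.7% of 69.8 and 55.5. The glycolytic enzyme gene Pfkm had a locus at chr15:98129267-98129328 with 30.2% and 22.9%, and the Fbn1 locus chr2:125383607-125383693 had 95.6% and 95.5%. Since the mature sequences differ at 1 base near the 3′ end, how reads were split between the names bears on these shares, and its part was not tested.

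**Figure D3:**
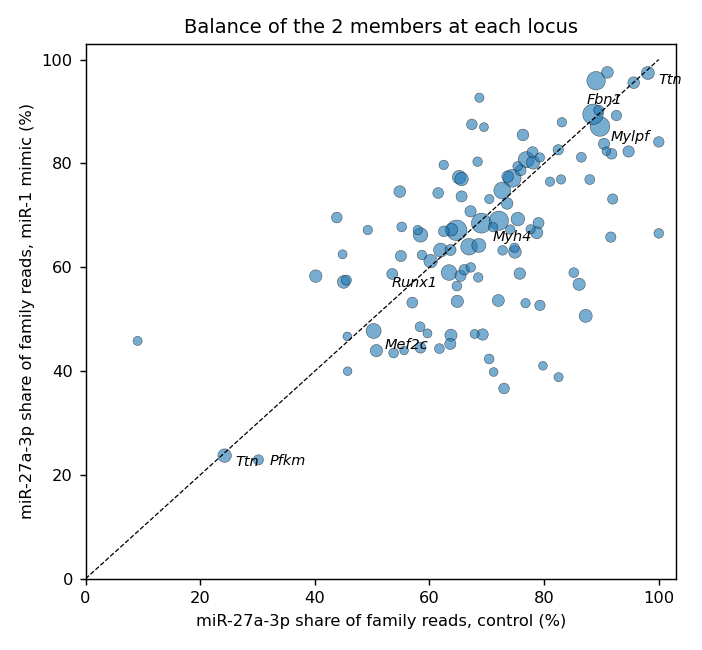
Share of miR-27a-3p in miR-27 family reads (%) at 113 loci with 10 or more family reads in each library, control on the x axis and mimic on the y axis, with point area growing with the reads of the locus. Most points lie above 50% on both axes, while Pfkm and 1 of the labelled Ttn loci lie near 25% on both and Fbn1 and the other Ttn locus above 95% on both.

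The strongest targets were mRNAs of the contractile apparatus, on which many miRNAs were found, and a smaller set of regulators. At single peaks of Mef2c, Plxnd1, Runx1 and Btg2 the family held most of the reads, as it did at the highest Ttn peak. Over the whole gene its share was lower at Runx1 (56.6% and 44.4%, control and mimic) and Btg2 (34.3% and 27.7%). Values below are family reads at the highest peak of a gene, in the control and then in the mimic library. They depend on the abundance of the mRNA as well as on its occupancy. Fast myosin heavy chain genes and Ttn had the highest peaks. Myh4 had 277 (Poisson interval 245 to 312) and 283 (251 to 318), and Myh1 had 252 (222 to 285) and 330 (295 to 368). The myosin genes are near-identical in long stretches, so reads at Myh1 and Myh4 may be split between them. Ttn had 243 (213 to 276) and 345 (310 to 383) at chr2:76896700-76896808, where the family held 90.6% and 92.7% of the reads of the locus. Skeletal actin (Acta1) had 224 and 155, and the fast regulatory light chain gene Mylpf had 211 and 247. The family held less of these loci, 44.9% and 33.8% at Acta1 and 64.6% and 48.8% at Mylpf, with miR-133a-3p and miR-1a-3p as the next names. As merged loci, Mylpf had 317 and 247 family reads (3 control peaks, 1 mimic peak) and Myh4 307 and 283 (2 and 1). At both genes the direction between the libraries thus depended on peak borders.

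Mef2c, a transcription factor of muscle differentiation and fibre type, was the clearest regulator. Its peak at chr13:83520381-83520467 (plus strand) held 97.5 (79.6 to 119) family reads without and 93.3 (75.1 to 114) with the mimic, shared about equally by miR-27a-3p (50.3% and 47.7%) and miR-27b-3p. Both members included, 8 and 6 miRNAs were named there, and the next one had 1 read in the control and 3.89 reads in the mimic library. A further Mef2c peak at chr13:83663603-83663671 held 11.95 and 12.84 family reads, with no other miRNA in the control library. Over the whole gene the family made up 68.9% and 69.1% of chimeric reads. The main peak lay 146611 bases or more from the 3′ end of the gene span, and the transcript searched held ACTGTGA once in the 5′ UTR and once in the coding sequence. The further peak lay 3409 to 3477 bases from that end in the control library. This is within the 4448 bases of the annotated 3′ UTR, which held no match.

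Plxnd1 had 61.5 (47.5 to 79.5) and 84.8 (67.9 to 105) family reads at its peak, 98.4% and 97.7% of all chimeric reads there. Runx1 had 147 (124 to 173) and then 75.4 (59.0 to 94.0), with the family at 83.7% and 84.7% of the peak. Btg2, an antiproliferative gene, had 52.0 and 30.1, at a peak within the length of the annotated 3′ UTR that covered no match by distance. The cytochrome oxidase assembly factor gene Coa5 had 41.7 and 45.5, and Asph, whose products include junctional proteins of the sarcoplasmic reticulum, had 41.6 and 56.9. The collagen gene Col3a1 had 52.9 and 44.7 and Col1a1 had 34.7 and 56.7, but at Col1a1 miR-133a-3p had 456 reads in the same peak of the mimic library. Neb, the nebulin gene, had 53.9 and 67.2, with miR-133a-3p at 41.9 and 100 reads. Of 14 genes with the highest peaks whose transcript was found by name, 9 held ACTGTGA somewhere in it. Acta1, Col1a1, Col3a1 and Mylpf were among those that did not.

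Some peaks carried the family alone in 1 library. In the control library no other miRNA was named at the peaks of Canx (10.2 family reads), an endoplasmic reticulum chaperone, Ube4a (12.9), a ubiquitin ligase factor, Hnrnpul2 (16.8), Prmt1 (10.2), an arginine methyltransferase, and Calm3 (16.9), a calmodulin gene. At the same loci of the mimic library the family held 86.1% at Canx (6.19 reads), 82.5% at Ube4a (9.42), 64.2% at Hnrnpul2 (7), 100% at Prmt1 (3.53) and 97.3% at Calm3 (19.03). In the mimic library the family was alone at Sfrp1 (20.2), a secreted Wnt antagonist, and Acly (12.6), the ATP citrate lyase of fatty acid synthesis. In the control library the family held 84.3% of the Sfrp1 locus and 85.6% of the Acly locus, with 24.1 family reads at each. The matrix gene Fbn1, which encodes fibrillin-1, had 31.3 family reads at a peak of the control library where miR-22-3p had under 0.001 read, and it held 92.4% of the locus in the mimic library. At single peaks of the mimic library the family had 17.5 of 17.9 reads at Epas1, the hypoxia-inducible factor HIF-2α. It had 31.7 of 32.6 at a peak of Marchf6 and 19.9 of 20.9 at a peak of Capzb. In the control library the family held 94.2%, 96.0% and 94.6% of these loci. Of 13 such genes whose transcript was found by name, 9 held the seed match somewhere in it, which does not place the match under the peak. Acly, Hnrnpul2, Prmt1 and Ube4a held none. At Calm3, Capzb, Epas1 and Fbn1 the match lay in the coding sequence only. The peaks of Acly and Calm3 lay within the length of the annotated 3′ UTR and covered no match there. At Sfrp1 the peak covered a match by distance in both libraries. Whole genes gave lower family shares than these peaks. In the control and then the mimic library they were 42.3% and 32.3% at Epas1, 24.2% and 28.04% at Capzb and 21.7% and 21.4% at Fbn1. Higher shares were found at Calm3 (85.9% and 91.3%), Acly (75.9% and 81.3%) and Marchf6 (61.8% and 66.01%). On the whole Canx gene miR-22-3p had 20.4 and 15.9 reads, more than the 10.2 and 6.51 of the family.

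Strong sites recurred between the libraries and weak ones often did not. Of 3291 control peaks of the family, 1416 overlapped a family peak of the mimic library by at least 1 nt on the same strand (43.0%, 41.3 to 44.7). The share was 28.4% for peaks with under 1 family read, 44.1% from 1 to under 3, 77.7% from 3 to under 10 and 99.3% (151 of 152) with 10 or more. The exception was a peak of 12.3 family reads in Ttn at chr2:76742550-76742580. The family share of a locus was also close between the libraries, with a Spearman rho of 0.921 over the 113 loci. By gene, 1875 and 1889 genes carried a family peak and 1067 did in both, 56.9% and 56.5% of each list. With 3 or more family reads at a peak the numbers were 433, 415 and 266. The overlap shares by read class and by gene were not calculated for other miRNAs. Neither is therefore shown to be particular to the family.

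**Figure D4:**
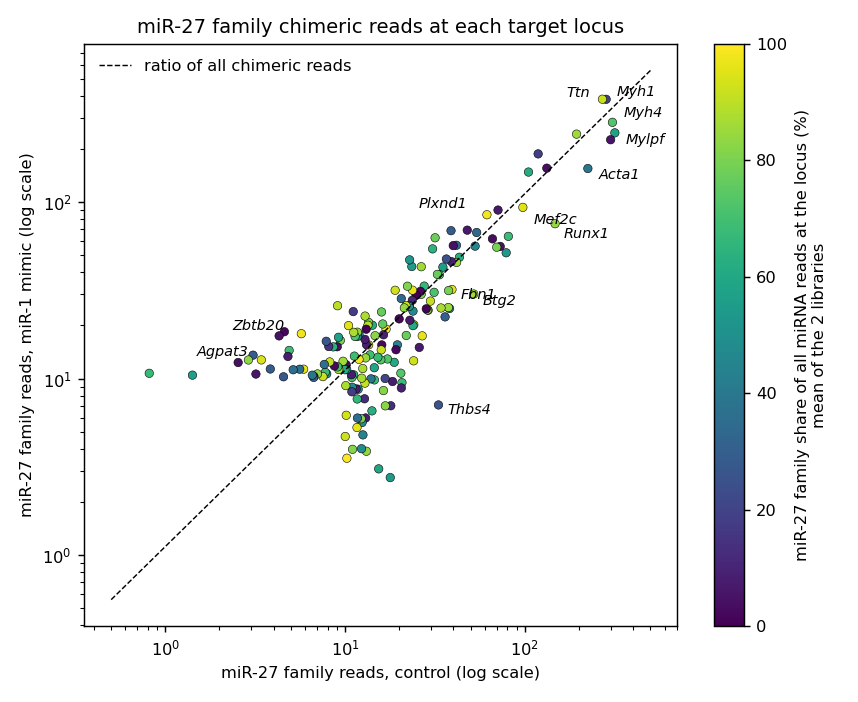
miR-27 family reads at loci with 10 or more family reads in at least 1 library and some in the other, control (x axis) against mimic (y axis), both on log scales, coloured by the mean share (%) that the family took of all chimeric reads at the locus. Points follow the dashed line, the ratio of all chimeric reads (1.12), from about 10 reads to Myh1, Myh4 and Ttn near 300, while Runx1, Btg2, Acta1 and Thbs4 lie below it.

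Matched peaks gave a median near 0. Over 1338 pairs of peaks that were each other's largest overlap, the median log2 of mimic over control was 0.02 (order-statistic interval -0.03 to 0.11) with an SD of 2.07, beside 0.05 for 29472 pairs of the other miRNAs. With 3 or more reads in both libraries it was 0.07 over 331 pairs and 0.12 over 5961. Of 173 family pairs with 10 or more reads in 1 library and 3 or more in the other, 14 were at least 2-fold higher in the mimic library (8.09%) and 19 at least 2-fold lower (11%). Over 3004 such pairs of all miRNAs, each miRNA taken apart, the shares were 15.4% higher and 6.82% lower. The latter hold the pairs of miR-27a-3p and of miR-27b-3p taken apart, and a difference between these shares was not tested. The family counts also depended on peak borders. With peaks merged into loci and the same read limits, 16 of 178 family loci were at least 2-fold higher and 17 at least 2-fold lower. At Ttn chr2:76724030-76724122 the matched pair went from 23.7 to 7.27 family reads, whereas the merged locus went from 23.7 to 27.8.

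Among the 113 loci, 96 had a ratio whose counting interval included the ratio of all reads, 6 lay wholly above it and 11 wholly below. The same count was not made for other miRNAs, so these numbers are not shown to be particular to the family. The lower loci included Runx1, whose family reads went from 147 to 75.4 (ratio 0.512, 0.381 to 0.678). The reads of other miRNAs at the Runx1 locus went from 28.7 to 13.6, a ratio of 0.473, so the family share of the locus stayed at 83.7% and 84.7%. Btg2 likewise had a family ratio of 0.580 (0.355 to 0.921) and an other-miRNA ratio of 0.408. At Acta1 the family ratio was 0.691 (0.560 to 0.853) while other miRNAs gave 1.105, and at Mylpf it was 0.779 (0.657 to 0.923) while other miRNAs gave 1.49. Less mRNA, fewer cells that hold it and lower occupancy cannot be told apart in 1 library of whole muscle per group.

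The higher loci included the first Ttn locus at 1.42 (1.21 to 1.66) with other miRNAs at 1.07. Srl, the gene of the calcium-binding sarcalumenin of the sarcoplasmic reticulum, went from 22.9 to 47.0 family reads, a ratio of 2.06 (1.22 to 3.53) with other miRNAs at 1.55. Myh1 had 1.35 (1.16 to 1.58) with other miRNAs at 1.70.

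Among the 173 pairs with 10 or more reads in 1 library and 3 or more in the other, the largest changes outside Ttn and Myh1 were at smaller sites. Pairs with fewer reads held larger folds and are not described. Thbs4, the matrix protein thrombospondin-4, went from 30.7 to 6.33 family reads (fold 0.206, 0.066 to 0.471). Supt6, a transcription elongation factor, went from 13.1 to 3.87 (fold 0.294, 0.073 to 0.996), and Cblb, a ubiquitin ligase, from 12.3 to 4 (0.324, 0.0784 to 1.0998). The acyltransferase gene Agpat3 went from 3.42 to 12.7 (3.73, 1.19 to 23.7) and the zinc finger repressor gene Zbtb20 from 5.71 to 17.9 (3.14, 1.14 to 9.23). The remaining 5 of the 10 were in Ttn (4 pairs) and Myh1 (1 pair). These folds were picked for their size, so they describe the extremes and support nothing further.

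Of 27 genes taken as known miR-27 targets, 17 carried a peak of any miRNA in the control and 18 in the mimic library, and 12 and 15 of these had a family peak. Over all genes with any peak the shares with a family peak were 28.3% and 27.4%. A family peak of 3 or more reads was found in 7 and 9 of them, against 6.54% and 6.01% of all genes with any peak. The list held 3.54% (3.18 to 3.94) and 2.80% (2.48 to 3.14) of the family reads on nuclear genes other than Rn18s-rs5, and 0.371% and 0.280% of the reads of all other miRNAs there. Without Runx1 and Mef2c the shares were 0.607% and 0.699%, against 0.273% and 0.202%. The list was drawn up from the literature on miR-27 with earlier results of these data known, and 22 of its 27 transcripts held ACTGTGA.

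After Mef2c and Runx1, Abca1, the cholesterol exporter, had 22.4 and 25.1 family reads, and miR-33-5p, a known regulator of Abca1, had 26.97 and 10.9 on the gene. At the main Abca1 locus chr4:53031379-53031536 all family reads of the control library and 84.1% of those of the mimic library were miR-27a-3p. Nfe2l2, the antioxidant transcription factor NRF2, had 9.53 and 6.803. Zbtb10 had 5.21 and 5.26, the glycerol-phosphate acyltransferase gene Gpam 3.46 and 5.51, the growth factor signalling inhibitor Spry2 3.10 and 3.67, and the atrophy regulator Foxo1 3.88 and 2.72. Mstn, which encodes the growth inhibitor myostatin, had no chimeric read of any miRNA in the control library and 5.88 family reads of 16.0 in the mimic library. Counts this small allow no statement on a difference. Mmp13 and Ndst1 had reads of other miRNAs only. Pax3, Ppara, Rxra, Prdm16, Dll4, Grem1 and Phb had no chimeric read of any miRNA in either library.

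**Figure D5:**
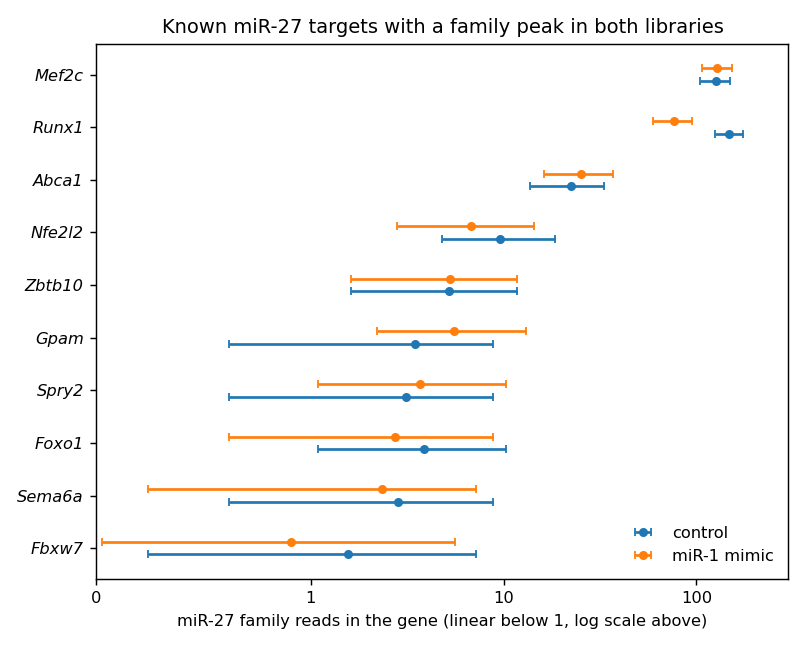
miR-27 family reads summed over each gene (x axis, linear below 1 and log scale above) for the 10 known miR-27 targets with a family peak in both libraries, in control and mimic, with 95% Poisson intervals. Mef2c lies at 126 and 127.6 reads, Runx1 at 148 and 76.4, Abca1 at 22.4 and 25.1, and all others below 10.

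The other gene lists are given by their share of nuclear family reads in the control and then the mimic library, beside the same share of other miRNAs, and the genes said to lead a list have the most family reads over both libraries combined. The contractile apparatus (59 genes) took 34.4% and 37.3% of family reads, against 26.3% and 29.8%, and 47 of its 57 genes with any peak and 50 of 58 had a family peak, beside 28.3% and 27.4% of all genes with any peak. Ttn alone took 12.8% and 15.3% of all family reads. Myogenic regulators (33 genes) took 1.51% and 1.57% against 0.394% and 0.376%, and most of this was Mef2c, since the next genes, the splicing regulator Celf1 and the transcription factor Tead1, had 5.15 and 11.2 and then 4.57 and 2.38 family reads. Genes of lipid metabolism and adipocyte regulation (51 genes) took 0.784% (0.617 to 0.987) and 0.977% (0.787 to 1.19) against 0.431% and 0.430%, with a family peak in 14 of its 32 genes with any peak and in 19 of 36, beside the same 28.3% and 27.4%. Abca1, Agpat3 (9.82 and 19.7) and the desaturase gene Scd2 (13.01 and 13.1) led it.

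The extracellular matrix (58 genes) took 4.83% and 4.10% against 6.34% and 5.25%, led by Col3a1, Col1a1 and Col1a2, although in the control library alone Thbs4 (51.7) and Fbn1 (45.9) came before Col1a1 (45.3) and Col1a2 (42.1). Glycolysis and glycogen genes (29 genes) took 1.11% and 1.01% against 2.61% and 2.32%, led by Pfkm (26.9 and 30.6), Pygm (14.3 and 16.1) and Aldoa (9.36 and 10.4). Calcium handling (35 genes) took 1.58% and 1.96% against 1.97% and 2.02%, led by Asph, Srl and the calcium pump gene Atp2a1 (21.4 and 24.1). Growth, TGF-beta and atrophy signalling (59 genes) took 0.721% and 0.790% against 1.16% and 0.972%. In this list Tgfbr3, the TGF-beta co-receptor betaglycan, had 21.8 and 25.9 family reads, 91.6% and 94.2% of all reads in its peak. The follistatin-like Fstl1 had 15.04 and 7.03, and the insulin receptor substrate Irs2 had 3.84 and 11.3. Of genes with any peak, 38 of 55 and 40 of 58 in the matrix list had a family peak. The counts were 15 of 25 and 18 of 28 for glycolysis and glycogen, and 18 of 34 and 17 of 33 for calcium handling. They were 19 of 45 and 21 of 51 for growth signalling, and 10 of 22 and 9 of 24 for myogenic regulators. A share above the 28.3% and 27.4% of all genes was thus common to all lists.

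miR-128-3p, with its overlapping seed, was often found at miR-27 peaks, as were some miRNAs without that seed. Of its entries, 54.3% in the control and 60.8% in the mimic library fell on peaks that also named miR-27, compared with 35.4% and 36.9% for miR-23a-3p and 26.4% and 27.9% for miR-24-3p. Over 146 miRNAs the median was 35.1% and 37.8%, and 5 were above miR-128-3p in the control library (among them miR-2137 at 73.1% and miR-541-5p at 60.8%) and 1 in the mimic library (miR-339-5p at 60.9%). At peaks with 3 or more family reads where the family held 50% or more, miR-128-3p had 45 of 541 control entries (8.32%, 6.13 to 10.97) and 44 of 597 mimic entries (7.37%, 5.41 to 9.77). This was the highest share among 146 miRNAs in both libraries, whose medians were 1.35% and 0.860%. The reverse was less distinct, since 19.4% and 22.7% of family peaks with 3 or more reads named miR-128-3p, and 5 and 9 of 36 other miRNAs exceeded that.

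Family peaks lay at like distances from gene ends as those of other miRNAs. Within 3000 bases of the 3′ end of the gene span lay 38.2% (36.7 to 39.7) of the control family entries and 37.2% (35.8 to 38.7) of the mimic ones, against 38.8% and 37.7% for other miRNAs. With 3 or more reads the shares were 42.3% and 41.1%, against 42.5% and 41.7%. Where the family held 3 or more reads and 50% or more of the peak the shares were 44.8% (39.5 to 50.2) and 46.7% (41.1 to 52.3). Where it held under 50% they were 38.4% (31.7 to 45.5) and 36.4% (30.003 to 43.1).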

How the data were processed

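Per the labels and methods, plantaris muscle was pulverised and UV crosslinked, Ago2 was immunoprecipitated, and miRNAs were ligated to their targets on beads. The submitters' processing notes name mm10, UMI-tools 1.1.1, cutadapt 3.2, STAR 2.7.7a, Bowtie 1.2.3 and HOMER 4.11, while the methods name mm9. Peaks lay beyond the chromosome ends of mm9 (36 and 35) and 99.0% of peaks of each library fell in a GRCm38 gene, so coordinates are taken as GRCm38. The deposited values are estimated counts of chimeric reads per miRNA and peak. They need not be whole, 55.5% and 56.3% of them were under 1, and how fractions arose is not given in the sources used here. The methods also mention a primer for miR-1, whose effect on other miRNAs was not tested. Genes came from RefSeq GRCm38.p6 spans, with strand from RefSeq promoters and miRNAs or, by name, from GENCODE vM1.

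With 1 library per group no test was made. Values have exact Clopper-Pearson, Poisson or conditional binomial intervals (95%) on rounded sums, which cover counting error only. Reads at a peak were set beside the reads of all other miRNAs there. The named genes are those with the 12 highest family peaks per library, the known targets, the 10 highest family shares per library, the 5 largest rises and falls at matched peaks and the 3 leading genes of each other list. The listed symbols Phb1, Ctgf and Cyr61 had no match in the gene table. Members, lists and rules were chosen with earlier results of these data known, and merged loci and the distance comparison of seed matches were added after seeing the data. Some items are not reported here. A planned search of peak sequences was not run without a genome of that build. Python 3.11.15 with pandas 2.3.3 and scipy 1.17.1 was used, and the overlap and interval code was tested on simulated data.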

Additional observations from a re-analysis of the deposited data

Results flagged for a closer look

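The passenger arm of miR-27b, which is no member of the family as defined here, was named in both libraries. miR-27b-5p had 13.3 summed chimeric reads at 7 peaks in the control (Poisson interval 6.92 to 22.2) and 3.42 at 3 peaks in the mimic library (0.619 to 8.77). It drew attention because both values exceed 3 reads, taken as the limit that a count of 0 allows, although the mimic value is below 3.69, the upper Poisson bound used for a count of 0 elsewhere. miR-27a-5p had 0.800 read in the control library and none in the mimic library.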

How the results depend on the processing

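Of 59 recalculations, 28 stayed within the counting interval of the main value (or within 1.5 times, for gene counts), 28 moved and 3 turned direction. The 3 were the ratio of family reads divided by library totals (0.929), and the median log2 change divided by library totals (-0.14) or for miR-27a-3p alone (-0.020). With entries of at least 1 read, and then of at least 3, the family share of entries was 4.84% and 5.39% in the control and 4.64% and 5.17% in the mimic library. The share of miR-27a-3p was 70.9% and 74.3% in the control and 69.6% and 72.3% in the mimic library. The overlapped share was 47.8% and 62.9%, and the genes numbered 1121 and 331 in the control and 1100 and 324 in the mimic library. Counted by reads, the family share was 4.37% and 4.06%. The overlapped share was 34.9% with 50% reciprocal overlap, 40.9% from the mimic side, 64.7% against any miRNA, 41.1% for miR-27a-3p alone, 40.5% for miR-27b-3p alone and 40.9% with peaks merged into loci. With at least 2 peaks per gene there were 604 and 606 genes. The known targets took 5.14% and 3.86% of family reads at 3 or more reads, and 0.607% and 0.699% without Runx1 and Mef2c. The stricter minimum leaves fewer entries by construction, and for the other shifts the cause was not tested. No paired analysis was possible because no group held more than 1 library. Of control peaks with under 1 family read, 28.4% had a counterpart, and the part of depth in this was not tested.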
